A study of Mus musculus with 6 samples.

Results

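Accessible chromatin was examined at 45 genes that stop or drive the cell cycle or that control cell death, in monocytic myeloid-derived suppressor cells (M-MDSCs) from mouse tumors. The genes were taken from a list of names chosen with earlier results of these data known. All names were found in the GENCODE M21 annotation of mm10, out of 21911 protein-coding genes. A peak was assigned to a gene when it overlapped the gene body or the 20 kb on either side. This rule found 73 of the 11800 deposited peaks, and 23 of the 45 genes had at least 1 of them.

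The cells were sorted as CD11b+Ly-6ChiLy-6G- cells from Hepa 1-6 tumors, a mouse hepatoma line that had been injected into the liver. All hosts were wild-type C57BL/6J females aged 6 to 8 weeks, admitted by the share of MDSCs in their blood. The inhibitors reached the whole animal, tumor cells included, and not M-MDSCs alone. The mice were given vehicle, MS-275 at 5 mg/kg or CXD101 at 5 mg/kg by daily intraperitoneal injection for 10 days, and the tumors were taken on day 21 after the transplantation. Both compounds inhibit the class I histone deacetylases HDAC1, HDAC2 and HDAC3. Each group had 2 libraries of ATAC-seq, a method that reads open chromatin from where a transposase inserts sequencing adapters.

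Cyclins bind cyclin-dependent kinases (CDKs) and drive the cell cycle, and CDK inhibitor proteins block these complexes. Active CDK4, CDK6 and CDK2 phosphorylate the Rb pocket proteins, which releases E2F transcription factors and lets a cell enter S phase. The p53 protein induces the CDK inhibitor gene Cdkn1a and several genes of the Bcl2 family, whose members either protect mitochondria or make them leak and so start apoptosis. Inhibitors of class I histone deacetylases are widely known to induce Cdkn1a and to arrest dividing cells. M-MDSCs are short-lived monocytic cells, and the balance of the Bcl2 family helps to set how long such cells survive.

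The authors called peaks on the pooled libraries of a group, so each peak is a site where the pool of one group had more signal than the pool of another. Peaks of MS-275 over vehicle are named MS-275 gained, and peaks of vehicle over MS-275 are named MS-275 lost, with the same names for CXD101. The direct peaks are those of MS-275 over CXD101. The fold enrichment compares the pileup of the higher group at the summit, the highest point of a peak, with the level of the other group, after scaling to one depth and with a pseudocount of 1 on both. For that level MACS2 takes whichever local average around the site is highest. Tags are unscaled counts of the higher group, while a vehicle level is given at vehicle depth, so their plain ratio is not the fold enrichment. The −log10 p comes from the Poisson test of MACS2 on the pooled tags. No value per library was used, so the spread between replicates is unknown and no difference here has a replicate check. A wide peak can hold several summits, and each summit was counted as 1 peak.

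Sites of higher accessible signal than in the vehicle pool were called at many of these genes for the MS-275 pool and at 1 for the CXD101 pool. The lists differ in size, with 8480 MS-275 gained and 284 CXD101 gained peaks. An MS-275 gained peak was found at 20 of the 45 genes (44.4%), beside 18.7% of all protein-coding genes under the same rule. A CXD101 gained peak was found at 1 gene, beside 0.958% of all protein-coding genes. An MS-275 lost peak was found at 0 genes (background 2.9%), and a CXD101 lost peak at 2 genes (background 3.62%). Direct peaks were found at 11 genes (24.4%, background 6.63%), and peaks of CXD101 over MS-275 at 0 genes (background 0.0137%). The genes of the list are not replicates, so these shares are a description without a test. The genes did not have longer bodies than usual, with a median of 10.0 kb beside 17.4 kb for protein-coding genes.

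**Figure D1:**
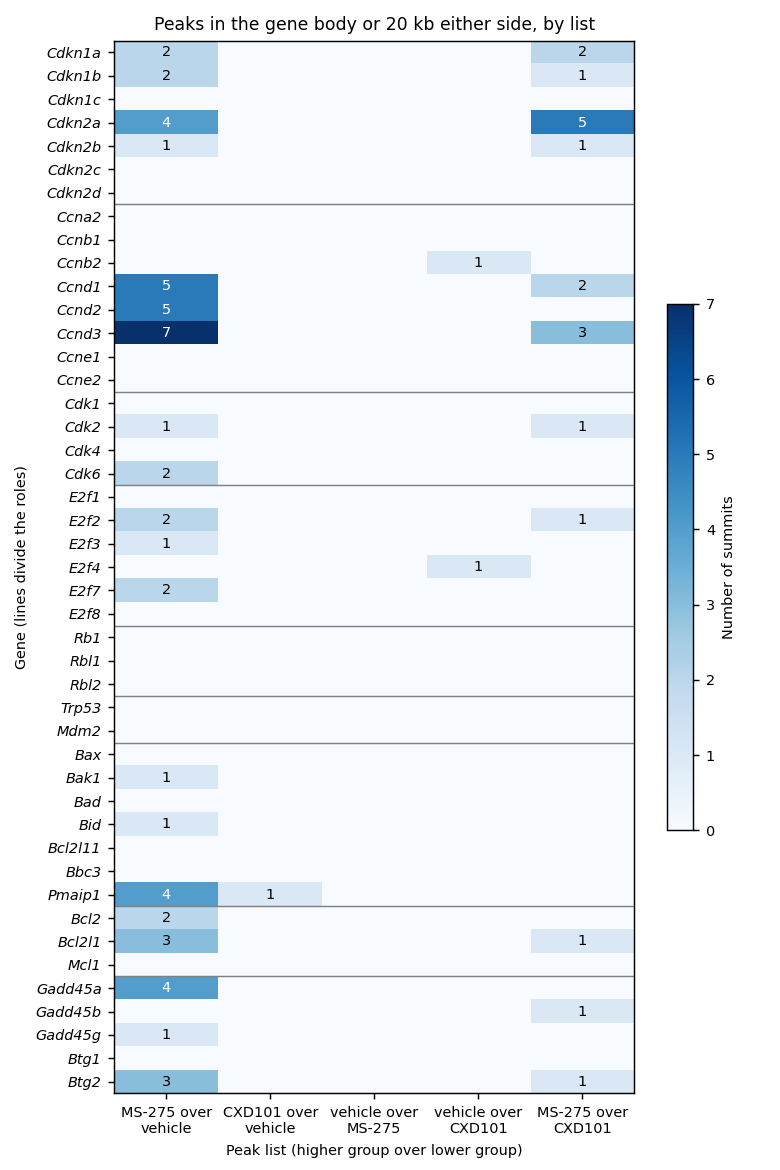
Number of summits in the gene body or 20 kb either side, for each of the 45 genes (rows, with lines between the roles) and for 5 of the peak lists (columns, named as the higher over the lower group). Most numbers stand in the columns of MS-275 over vehicle, with up to 7 summits at Ccnd3, and of MS-275 over CXD101, and the column of vehicle over MS-275 is empty.

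**Figure D2:**
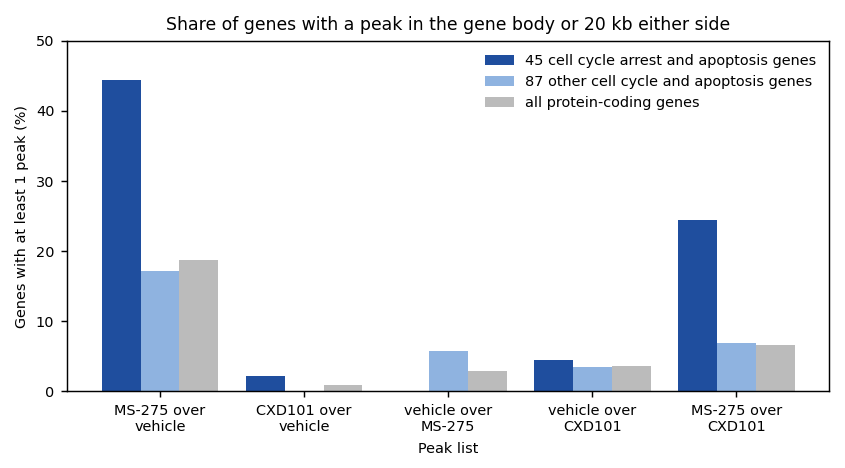
Percent of genes with at least 1 peak (vertical axis) in each list, for the 45 genes, 87 other cell cycle and apoptosis genes and all protein-coding genes. In the list of MS-275 over vehicle the 45 genes stand at 44.4%, the other genes at 17.2% and all protein-coding genes at 18.7%. The 45 and the 87 genes were chosen with earlier results of these data known.

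Most roles held MS-275 gained peaks, beside the background of 18.7% for any protein-coding gene. Of the CDK inhibitors, 4 of 7 had an MS-275 gained peak, as did 3 of 8 cyclins, 2 of 4 CDKs, 3 of 6 E2F factors and 3 of 7 pro-apoptotic Bcl2 family genes. Of the anti-apoptotic family genes 2 of 3 had one, and of the stress and antiproliferative genes 3 of 5 did. The 3 pocket protein genes (Rb1, Rbl1 and Rbl2), Trp53, which encodes p53, and Mdm2, which encodes its ubiquitin ligase, had 0 peaks in each of the 6 lists. With so few genes in a role and this background, neither a count of 0 nor the differences between roles can be read as a result.

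The 52 MS-275 gained summits at these genes lay in 38 intervals. Their fold enrichment ranged from 1.6 to 6.38 with a median of 2.72, and the median of all 8480 MS-275 gained peaks was 2.88. Behind them stood 26 to 153 MS-275 tags (median 70.5, beside 57 for the whole list). The vehicle level ranged from 7.0 to 82.6 tags (median 21.8, beside 15.8 for the whole list). The peaks at these genes were therefore of ordinary fold and started from a somewhat higher vehicle level than the list as a whole. Their median −log10 p was 12.9 beside 10.3, and their median width was 359.5 bp beside 265 bp. Of the 52 summits, 19 were intronic, 19 lay downstream of the gene, 12 upstream, 1 in a coding exon and 1 in an untranslated part of an exon. The nearest start of a protein-coding gene belonged to the assigned gene at 47 of them (90.4%). At the other 5 it belonged to a neighbor, which is named below.

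**Figure D3:**
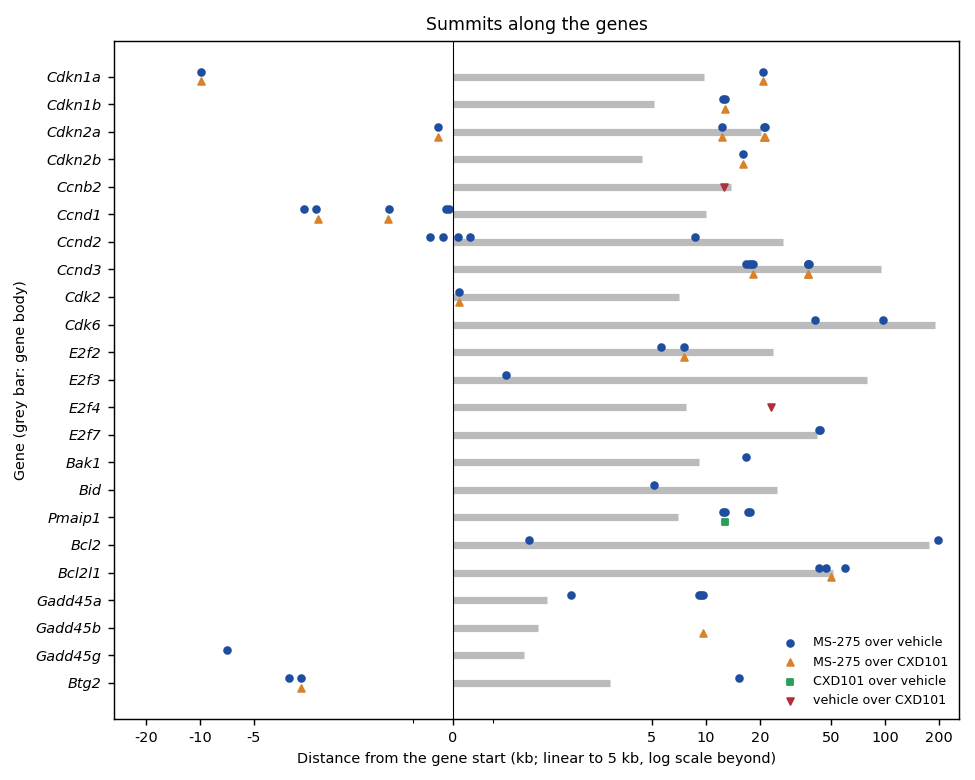
Summits by distance from the gene start (horizontal axis, kb, linear to 5 kb and on a log scale beyond) for the 23 genes with a peak, with the gene body as a grey bar. MS-275 gained summits cluster around the start of Ccnd1 and Ccnd2, lie inside Ccnd3, and lie downstream of Pmaip1 and Gadd45a, and direct summits sit under the gained ones at all 4 CDK inhibitors shown.

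Among the CDK inhibitors, Cdkn1a (ENSMUSG00000023067.14), which encodes p21, the inhibitor induced by p53, was flanked by gained peaks. Its body spans 29090976 to 29100727 of chromosome 17, plus strand. The upstream peak (29080965 to 29081282) had its summit 9.89 kb before the start, with 62 MS-275 tags, a vehicle level of 13.0, a fold enrichment of 3.94 (−log10 p 17.4.) The downstream peak (29111622 to 29111882) had its summit 11004 bases past the gene end, with 110 MS-275 tags, a vehicle level of 26.6, a fold enrichment of 3.52 (−log10 p 25.2.) This second summit lay only 2.41 kb from a start of Rab44, so it may belong to either gene. No gained peak lay within 5 kb upstream of a Cdkn1a start. Both sites were also called in the direct list, with fold enrichments over CXD101 of 3.06 (−log10 p 13.5) and 3.04 (−log10 p 22.8).

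The sequence of the downstream Cdkn1a summit is shown because it had the highest −log10 p of the direct list at any of the genes. It is given on the plus strand, chr17:29111631-29111831 of mm10, with 100 bases on either side of the gained summit. Capitals mark matches to the searched motifs in all sequences printed here, and this window held none.
Cdkn1a, downstream peak: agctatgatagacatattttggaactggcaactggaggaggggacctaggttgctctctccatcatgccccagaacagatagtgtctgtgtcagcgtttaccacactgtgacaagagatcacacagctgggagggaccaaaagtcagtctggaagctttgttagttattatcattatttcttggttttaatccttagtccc

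Cdkn2a (ENSMUSG00000044303.6) encodes the INK4a inhibitor of CDK4 and CDK6 and, from an upstream first exon in another reading frame, the ARF protein that stabilizes p53. Both of its starts had an MS-275 gained peak. Its body spans 89274471 to 89294653 of chromosome 4, minus strand. The peak at the internal start (89282175 to 89282515) had its summit 131 bp before the INK4a transcript, with 61 MS-275 tags, a vehicle level of 10.0, a fold enrichment of 4.94 (−log10 p 21.6.) The peak at the upstream start (89294917 to 89295139) had its summit 368 bp before the ARF transcript, with 89 MS-275 tags, a vehicle level of 29.6, a fold enrichment of 2.58 (−log10 p 12.9.) A further interval (89273254 to 89273658) lay about 1 kb past the gene end, with summits of fold enrichment 2.28 and 2.12. The fold enrichment was thus highest at the internal start, where the vehicle level, by which it divides, was lowest. In tags at vehicle depth the MS-275 pileup was 53.3 at the internal and 77.8 at the upstream start, so the rise in tags was not largest at the internal start.

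All these Cdkn2a sites were also direct peaks. The fold enrichment over CXD101 was 3.79 at the internal start (−log10 p 17.7) and 2.02 at the upstream start (−log10 p 9.05). At the interval past the gene end it was 2.55 and 2.04. The peak at the upstream start also fell within 20 kb of Cdkn2b, the neighboring gene for the INK4b inhibitor, 11.3 kb past its end, and was its only peak in both lists. Cdkn2b therefore adds no site of its own.

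The sequences of both Cdkn2a start peaks are shown on the minus strand of mm10, the strand of the gene, since they are 2 promoters of 1 gene. The windows are chr4:89282223-89282423 for the internal start and chr4:89294921-89295121 for the upstream start. The first held no searched motif, and the second held the NF-Y box ATTGG and the CHR element TTCAAA, each read on the opposite strand.
Cdkn2a, internal start: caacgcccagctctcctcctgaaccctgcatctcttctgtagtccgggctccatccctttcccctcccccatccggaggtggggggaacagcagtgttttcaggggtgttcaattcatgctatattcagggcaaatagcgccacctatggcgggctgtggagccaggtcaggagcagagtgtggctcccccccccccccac
Cdkn2a, upstream start: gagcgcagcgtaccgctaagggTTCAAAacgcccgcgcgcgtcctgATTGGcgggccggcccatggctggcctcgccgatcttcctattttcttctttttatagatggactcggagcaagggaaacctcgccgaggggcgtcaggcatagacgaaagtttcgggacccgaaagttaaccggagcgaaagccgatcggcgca

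Cdkn1b, which encodes the inhibitor p27, had 1 gained interval (chromosome 6, 134932789 to 134933393) within the noncoding gene Lockd, downstream of the gene. Its stronger summit had 61 MS-275 tags against a vehicle level of 16.2, a fold enrichment of 3.16 (−log10 p 13.0.) The direct peak in this interval lay at the weaker summit and had a fold enrichment of 2.37 (−log10 p 9.07). Cdkn1c, Cdkn2c and Cdkn2d, which encode p57, p18 and p19, had 0 peaks in each list. All 8 gained summits at CDK inhibitors lay in an interval that overlapped a direct peak, beside 17.4% of all MS-275 gained peaks. Some of the 8 share an interval, so they are fewer than 8 sites, and this count is a description. Of the 8, 7 summits lay inside a direct peak themselves, and the stronger Cdkn1b summit did not.

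The D-type cyclins, which link growth signals to CDK4 and CDK6, held 17 of the 52 gained summits. Many of the 17 share an interval, so they are fewer sites than summits. The body of Ccnd3 is also long, 94.6 kb beside a median of 10.0 kb for the 45 genes. This count is a description. Ccnd1 had 5, all upstream of its start on the minus strand of chromosome 7 (144929931 to 144939925). The interval next to the start (144939942 to 144940282) had summits at 100 and 178 bp, with fold enrichments of 1.94 and 1.86. The next peak (144941355 to 144941579), 1.61 kb before the start, had 103 MS-275 tags against a vehicle level of 32.0, a fold enrichment of 2.76 (−log10 p 16.9.) The farthest interval (144943181 to 144943776) reached a fold enrichment of 3.22 (80 tags, −log10 p 16.5) at 3.45 kb, and its outer summit had 1.84. The 2 highest values at Ccnd1 thus lay away from the start, while both summits next to it and the outermost summit stayed below 2-fold. Direct peaks lay at the 2 distal sites, with fold enrichments of 1.62 (−log10 p 5.28) and 2.29 (−log10 p 10.6), and not at the start itself.

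Ccnd2 had a wide gained interval across its start on the minus strand of chromosome 6 (127151519 to 127152808). Its 4 summits lay from 580 bp before to 443 bp after the start, with fold enrichments between 1.6 and 2.42. The strongest, 122 bp into the gene, had 111 MS-275 tags against a vehicle level of 39.6 and a −log10 p of 14.4. A further summit in an intron (127143442 to 127143651) had a fold enrichment of 2.52. The noncoding gene 9330179D12Rik overlaps this interval. No Ccnd2 peak was called in the direct list, which does not show that the inhibitors had equal signal there.

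Ccnd3 had the highest fold enrichment of all the genes, inside the gene and far from its start. Its body spans 47505051 to 47599691 of chromosome 17, plus strand. The interval from 47541918 to 47542785 held 3 intronic summits. The middle one, 37.3 kb into the gene, had 66 MS-275 tags against a vehicle level of 8.20, a fold enrichment of 6.38 (−log10 p 28.9.) The first had a fold enrichment of 4.67 (−log10 p 21.2), and the third had 2.84. A group of intronic summits nearer the start (47521822 to 47523516) had fold enrichments of 2.89, 3.44, 3.10 and 1.80. Direct peaks were called at both groups, with 3.28 and 3.07 at the first interval (−log10 p 15.9 and 15.5) and 1.58 (−log10 p 4.15) at the other. Of the strongest summits, that of Ccnd3 had the highest fold enrichment and the lowest vehicle level, by which the fold enrichment divides. Its rise in tags was not the largest. At vehicle depth it went from 8.20 to 57.7, and the strongest Cdkn1a summit from 26.6 to 96.2.

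The cyclin sequences are shown because Ccnd3 had the highest fold enrichment and the Ccnd1 and Ccnd2 summits came next after those of Cdkn2a and Btg2 among promoter summits by −log10 p. The Ccnd3 window is chr17:47542271-47542471 on the plus strand. The others are on the minus strand, chr7:144941430-144941630 and chr7:144943270-144943470 for the sites 1.61 and 3.45 kb before Ccnd1, and chr6:127151971-127152171 for Ccnd2. All are mm10. Capitals mark an E2F box (TTTCCCGC) and a p53 half-site in the first Ccnd1 window and an Sp1 box (CCGCCC) in the other and in Ccnd3.
Ccnd3, intronic peak: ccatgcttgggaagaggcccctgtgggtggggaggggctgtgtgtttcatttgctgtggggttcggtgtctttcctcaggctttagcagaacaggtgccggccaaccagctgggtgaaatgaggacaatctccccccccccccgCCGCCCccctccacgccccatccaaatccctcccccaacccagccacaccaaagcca
Ccnd1, nearer site: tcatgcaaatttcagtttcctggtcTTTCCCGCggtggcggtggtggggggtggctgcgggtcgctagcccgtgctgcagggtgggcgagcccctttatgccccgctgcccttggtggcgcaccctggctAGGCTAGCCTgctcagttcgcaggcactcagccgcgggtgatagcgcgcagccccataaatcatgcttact
Ccnd1, farther site: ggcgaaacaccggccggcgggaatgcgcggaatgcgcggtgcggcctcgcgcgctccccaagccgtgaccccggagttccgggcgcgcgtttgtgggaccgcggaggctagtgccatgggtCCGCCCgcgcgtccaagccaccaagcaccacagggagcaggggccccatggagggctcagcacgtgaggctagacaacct
Ccnd2, start: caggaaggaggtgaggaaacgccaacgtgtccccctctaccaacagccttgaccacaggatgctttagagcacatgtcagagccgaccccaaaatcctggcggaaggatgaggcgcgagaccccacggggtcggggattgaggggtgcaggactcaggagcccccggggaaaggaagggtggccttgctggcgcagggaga

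The cyclins of the later phases had no gained peak, beside a background of 18.7% for MS-275 gained peaks. With so few genes this cannot be read as a result. Ccne1 and Ccne2, which activate CDK2 at the start of S phase, and Ccna2 and Ccnb1, which act in S phase and mitosis, had 0 peaks in each list. Ccnb2, a mitotic cyclin, had a CXD101 lost peak in an intron (chromosome 9, 70408694 to 70408983), with 20 vehicle tags over a CXD101 level of 5.84, a fold enrichment of 3.07 (−log10 p 6.02.) Its sequence, chr9:70408846-70409046 of mm10 on the minus strand, is shown as the strongest lost site at these genes, with an NF-Y box and a CHR element in capitals.
Ccnb2, intronic lost peak: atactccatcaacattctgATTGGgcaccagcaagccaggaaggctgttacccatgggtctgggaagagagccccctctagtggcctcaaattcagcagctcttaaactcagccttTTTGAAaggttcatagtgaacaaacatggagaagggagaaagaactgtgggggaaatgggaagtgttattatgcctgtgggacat

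Of the kinases, Cdk2, which works with the E-type and A-type cyclins, had a gained peak at its start (chromosome 10, 128704756 to 128704962). Its summit lay 151 bp into the gene, in an untranslated part of an exon, where Pmel also overlaps. It had 132 MS-275 tags against a vehicle level of 56.6, a fold enrichment of 2.02 (−log10 p 11.5.) The direct peak there had a fold enrichment of 1.88 (−log10 p 10.6). Cdk2 was thus already open in the vehicle group and rose by a modest fold. Cdk6 had 2 intronic gained peaks with fold enrichments of 2.69 (−log10 p 13.6) and 2.60 (−log10 p 8.05), at 98.0 and 40.7 kb from its start. Cdk1, the mitotic kinase, and Cdk4 had 0 peaks in each list.

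Of the E2F factors, E2f2, an activator of S phase genes, had 2 intronic gained peaks on chromosome 4. The stronger (136179798 to 136180007), 7.52 kb into the gene and 871 bp before an internal start, had 85 MS-275 tags against a vehicle level of 28.0, a fold enrichment of 2.60 (−log10 p 12.8.) A direct peak shared its summit, with a fold enrichment of 2.79 (−log10 p 16.1). E2f3 had a gained peak near an internal start (chromosome 13, 29984633 to 29984853), with the highest vehicle level of all, 82.6, below 153 MS-275 tags, and a fold enrichment of 1.61 (−log10 p 6.89). E2f7, a repressor of the family, had a gained interval just past its end, inside 1700020G17Rik, with a fold enrichment of 2.98 (−log10 p 10.4). E2f4, a factor of resting cells, had 1 CXD101 lost peak 15.4 kb past its end, inside Lrrc29, with a fold enrichment of 1.63 (−log10 p 4.28). E2f1 and E2f8 had 0 peaks in each list.

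Among the pro-apoptotic genes, Pmaip1, which encodes the BH3-only protein NOXA, a p53 target, had the highest −log10 p of all the genes. It had 4 gained summits downstream of the gene on chromosome 18. The strongest (66470626 to 66471480), 5.39 kb past the gene end, had 85 MS-275 tags against a vehicle level of 13.8, a fold enrichment of 5.09 (−log10 p 29.8.) The second summit of this interval had a fold enrichment of 3.92, and the other peaks, about 10 kb past the end, had 2.95 and 3.50. All 4 lay nearer to a Pmaip1 start than to that of any other protein-coding gene.

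Pmaip1 was also the 1 gene of the list with a CXD101 gained peak (66471263 to 66471474). It had 66 CXD101 tags against a vehicle level of 19.8, a fold enrichment of 2.84 (−log10 p 12.1.) At the MS-275 summit of the same interval the values were 93 MS-275 tags, a fold enrichment of 3.92 (−log10 p 24.6.) Both comparisons used the same vehicle libraries. No direct peak was called at Pmaip1, which does not show that the inhibitors had equal signal there.

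Bid encodes a BH3-only protein that carries death receptor signals to mitochondria. It had 1 intronic gained peak (chromosome 6, 120911511 to 120911781), 5.15 kb into the gene, with 90 MS-275 tags, a fold enrichment of 3.79 (−log10 p 22.7.) Bak1, which encodes the pore-forming protein BAK, was assigned 1 gained peak (chromosome 17, 27012225 to 27012461), with 100 MS-275 tags against a vehicle level of 22.8, a fold enrichment of 3.72 (−log10 p 24.5.) The Bak1 peak lay inside Ggnbp1, 7.49 kb past the end of Bak1 and nearer to a start of Ggnbp1. Neither gene had a direct peak. Bax, Bad, Bcl2l11 (BIM) and Bbc3 (PUMA) had 0 peaks in each list.

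Of the anti-apoptotic genes, Bcl2 had a gained peak in a coding exon 1.92 kb from its start (chromosome 1, 106712191 to 106712422), with a fold enrichment of 3.01 (67 tags over 18.8, −log10 p 13.0). A further Bcl2 peak at the edge of the 20 kb window past the gene end had a fold enrichment of 4.00 (−log10 p 17.3), and its summit lay just outside the window. Bcl2l1, which encodes BCL-XL, had 3 gained peaks, of which the most significant was intronic (chromosome 2, 152788666 to 152788869), with 99 MS-275 tags against a vehicle level of 32.0, a fold enrichment of 2.65 (−log10 p 15.1.) All 3 lay nearer to a start of Cox4i2 than to one of Bcl2l1. A direct peak in an untranslated part of a Bcl2l1 exon (152781379 to 152781611) had a fold enrichment of 2.23 (−log10 p 4.99) and overlapped none of them. Mcl1, the protector on which many myeloid cells depend, had 0 peaks in each list. Gained peaks thus lay at genes on both sides of the Bcl2 family.

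The stress genes included all 3 members of the Gadd45 family, whose proteins respond to DNA damage and signal to stress kinases. Gadd45g had 1 gained peak 7.04 kb before its start (chromosome 13, 51839540 to 51839746), with 85 MS-275 tags against a vehicle level of 19.2, a fold enrichment of 3.73 (−log10 p 21.4.) Gadd45a had 4 gained summits downstream of the gene, with fold enrichments between 1.90 and 2.93, the highest of them 599 bp past the gene end (chromosome 6, 67034388 to 67034610). Gadd45b had no MS-275 gained peak but 1 direct peak (chromosome 10, 80939515 to 80939759), with 82 MS-275 tags over a CXD101 level of 32.0, a fold enrichment of 2.50 (−log10 p 12.9.) So each Gadd45 gene had a peak with MS-275 as the higher group, against vehicle at Gadd45a and Gadd45g and against CXD101 at Gadd45b. The backgrounds of these comparisons were 18.7% and 6.63%, and no rise over vehicle was called at Gadd45b. The peaks therefore do not add up to a result for the family.

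Btg2, an antiproliferative gene induced by p53, had a gained interval upstream of its start (chromosome 1, 134082784 to 134083329). Its stronger summit, 3.80 kb before the start, had 74 MS-275 tags against a vehicle level of 16.8, a fold enrichment of 3.68 (−log10 p 18.4.) The direct peak there had a fold enrichment of 2.21 (−log10 p 8.73). A further peak past the gene had a fold enrichment of 2.13. Btg1, the related gene, had 0 peaks in each list. The window of the stronger summit, chr1:134082821-134083021 of mm10 on the minus strand, is shown as the second strongest promoter summit of the genes, with an NF-Y box in capitals.
Btg2, upstream peak: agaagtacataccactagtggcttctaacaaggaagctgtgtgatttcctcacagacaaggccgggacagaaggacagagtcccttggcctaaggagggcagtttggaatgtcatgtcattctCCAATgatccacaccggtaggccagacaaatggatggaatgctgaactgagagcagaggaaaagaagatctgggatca

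**Figure D4:**
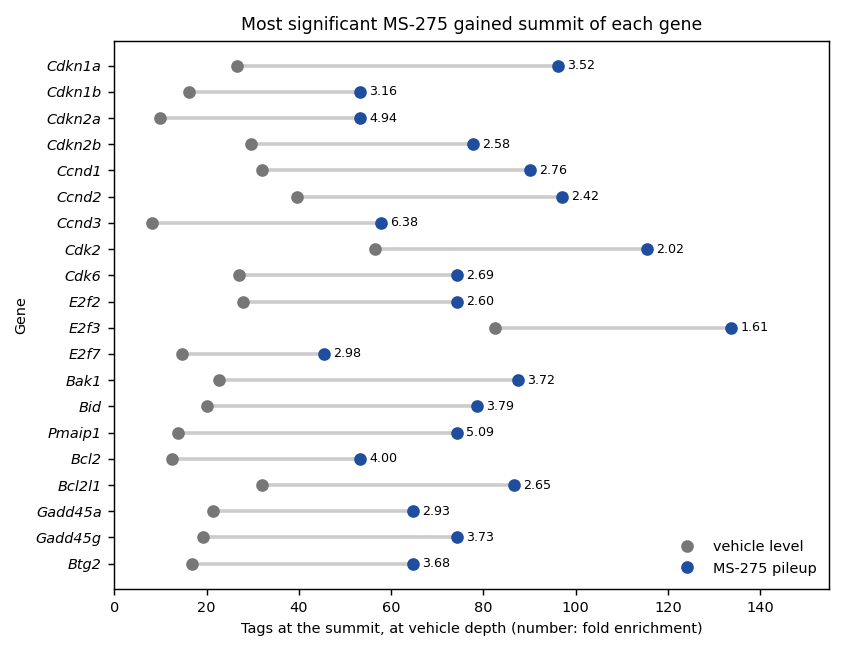
MS-275 pileup (blue) and vehicle level (grey), in tags at vehicle depth, at the gained summit of the highest −log10 p of each of the 20 genes, with the fold enrichment beside each pair. Cdk2 and E2f3 start from the highest vehicle levels, 56.6 and 82.6, and have the lowest fold enrichments, 2.02 and 1.61.

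Promoters were counted apart, as 5 kb upstream to 500 bases downstream of any annotated start of a gene. Of the 45 genes 7 (15.6%) had an MS-275 gained peak there, beside 6.87% of all protein-coding genes. They were Cdkn2a, Ccnd1, Ccnd2, Cdk2, E2f2, E2f3 and Btg2. For E2f2 and E2f3 the start was an internal one. Direct peaks lay in the promoters of 5 genes (11.1%, background 1.79%), namely Cdkn2a, Ccnd1, Cdk2, E2f2 and Btg2. Promoters of the genes held 0 peaks in the CXD101 gained, MS-275 lost and CXD101 lost lists (background 0.278%, 0.566% and 0.799%).

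The direct list asked whether the inhibitors differed at these genes. Of the 20 genes with an MS-275 gained peak, 10 (50.0%) had one whose interval overlapped a direct peak, beside 25.4% of all protein-coding genes with a gained peak. Of the 52 gained summits, 20 (38.5%) lay in such an interval, beside 17.4% of the whole list. Counting only summits inside a direct peak, 16 did, beside 13.8% of the list, and the 4 that dropped out were weaker summits of wide intervals at Ccnd1, Ccnd3 and Btg2 and the stronger Cdkn1b summit. For Bcl2 that direct peak lay just outside the 20 kb window, so Bcl2 is not among the 11 genes above. The 10 genes were Cdkn1a, Cdkn1b, Cdkn2a, Cdkn2b, Ccnd1, Ccnd3, Cdk2, E2f2, Bcl2 and Btg2. Both lists hold the same MS-275 libraries, so a high MS-275 signal raises a site in both. None of the 6 gained summits at pro-apoptotic genes lay in such an interval. With 17.4% over the whole list, so small a count cannot be read as a result. The test of each site is the MACS2 call of the direct list, on pooled libraries. The gained peaks at these genes were also wider than those of the whole list, and what this adds to the overlap was not tested.

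Where a gained and a direct summit lay within 250 bases of each other, the levels of all groups could be set side by side at vehicle depth. There were 16 such sites at 9 genes, counting Cdkn2b with Cdkn2a. At the upstream Cdkn1a site the MS-275 pileup was 54.2, the CXD101 level 16.5 and the vehicle level 13.0. At the downstream Cdkn1a site the values were 96.2, 30.4 and 26.6. The CXD101 level was thus 1.27 times the vehicle level at the upstream and 1.14 times at the downstream Cdkn1a site. The median over the 16 sites was 1.28. Since the error of these levels is unknown, equal signal of CXD101 and vehicle is not shown at Cdkn1a. At the internal Cdkn2a start the values were 53.3, 13.2 and 10.0, and at the strongest Ccnd3 summit they were 57.7, 19.3 and 8.20.

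CXD101 exceeded vehicle at 12 of the 16 sites, a count that has no background, since it was not made over all sites of the lists. The ratio of the CXD101 to the vehicle level ran from 0.802 to 2.36 with a median of 1.28. The highest ratio was at the strongest Ccnd3 summit. The nearer Ccnd1 site had 1.59, and Btg2 had 1.57. At E2f2 the ratio was 0.930. These levels are upper estimates, since MACS2 takes the highest of several local averages, and their error is unknown. The sites had been chosen for a high MS-275 signal against both groups.

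**Figure D5:**
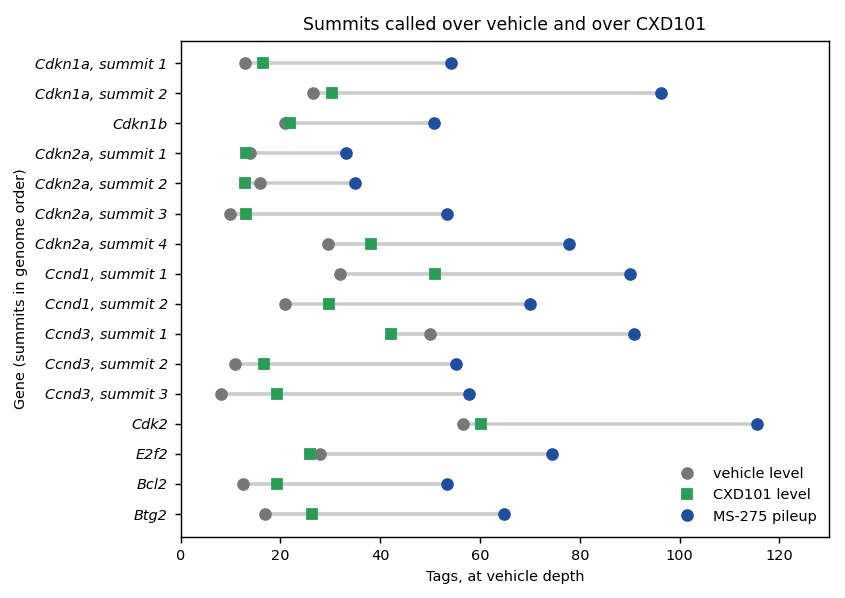
Vehicle level, CXD101 level and MS-275 pileup, in tags at vehicle depth, at the 16 sites called over vehicle and over CXD101. The MS-275 point stands apart to the right at each site, and the CXD101 and vehicle points differ by up to a ratio of 2.36, at the third Ccnd3 summit shown (19.3 and 8.20).

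Motifs were searched in the 201 bases around each summit, on both strands, as a description. The NF-Y box CCAAT was found at 14 of the 52 gained summits (26.9%, beside 20.6% of all MS-275 gained summits). The Sp1 box GGGCGG was found at 8 (15.4%, beside 10.6%), at Ccnd1, Ccnd2, Ccnd3 and E2f3. The CHR element TTTGAA, known from mitotic promoters, was found at 8 (15.4%, beside 13.1%). The p53 half-site was found at 4 (7.69%, beside 6.43%), at Ccnd1, Ccnd3 and E2f2. The box TTGCNNAA of C/EBP was found at 3 (5.77%, beside 9.02%), the AP-1 boxes TGACTCA and TGAGTCA at 2 (3.85%, beside 2.79%), and the E2F boxes TTTCCCGC, TTTGGCGC and TTTCGCGC at 1 (1.92%, beside 0.531%). The CRE box TGACGTCA and the PU.1 box GAGGAAGT were found at 0, beside 0.165% and 1.83%. RefSeq promoters of 300 bases held CCAAT in 37.4% and GGGCGG in 35.7%. Each of these counts rests on few summits, and summits of 1 interval share sequence. The median GC content was 51.5% at the gained summits of these genes and 49.8% over the list.

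Other genes of the cell cycle and of apoptosis were set beside the list. Both sets were chosen with earlier results of these data known, so their contrast is a description. Of the 87 other genes, 15 (17.2%) had an MS-275 gained peak and 6 (6.90%) a direct peak, both close to the background. In this set 5 genes had an MS-275 lost peak, 3 a CXD101 lost peak and 0 a CXD101 gained peak. The most significant was an MS-275 lost peak near Ccnf, which encodes cyclin F (fold enrichment 3.56, −log10 p 22.0). Gained peaks followed at Sesn2, a stress-induced regulator of growth (2.68, −log10 p 21.3), Bcl2a1d, an anti-apoptotic gene with near-identical copies (3.31, −log10 p 20.7), Mybl2, a partner of late cell cycle transcription (4.70, −log10 p 19.8), and Mcm5, a subunit of the replicative helicase (2.67, −log10 p 18.2). Reads of the Bcl2a1 copies could be assigned to the wrong one, so the Bcl2a1d value is uncertain.

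The lists hold differences between groups and not levels, so neither the sort nor the cell type could be checked from them. The background of 18.7% for an MS-275 gained peak applies to markers too. Of 8 markers of monocytes and M-MDSCs, 3 had an MS-275 gained peak (Itgam, Ly6c1 and Ly6c2). Of 7 neutrophil markers 6 did (Ly6g, S100a8, S100a9, Mpo, Elane and Cxcr2), of 7 macrophage markers 3, of 7 T cell markers 3, of 5 NK cell markers 1, and of 6 hepatocyte markers 1. None of the 5 B cell and 5 erythroid markers did. No marker of any of these types had a CXD101 gained peak. Itgam, Mertk and Cd3g each had a peak in the MS-275 lost and the CXD101 lost lists, so Itgam and Cd3g had MS-275 peaks in both directions. Direct peaks lay at Itgam, Ly6c1, Ly6g, Cd68 and Hnf4a. Gained signal near neutrophil genes thus accompanied the gained peaks described here, and its part in them was not tested. In such bulk libraries, more cells with an open site and a more open site per cell cannot be told apart.

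The depth limits what a missing peak means. In the MS-275 gained list the lowest fold enrichment was 2.28 at vehicle levels under 10 tags, 1.90 from 10 to 20, 1.62 from 20 to 40 and 1.40 above. In the CXD101 gained list it was 2.49, 2.07, 1.70 and 1.64. For the direct list, by the CXD101 level in the same ranges, it was 2.32, 1.91, 1.62 and 1.37. The vehicle level at the 22 genes without a peak is unknown, so the smallest change that could have been called at Trp53, Mcl1 or Bax cannot be given, and a missing peak there does not show that accessibility was the same. The MS-275 pool was 1.144 times and the CXD101 pool 1.137 times as deep as the vehicle pool.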

How the data were processed

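ATAC-seq of sorted tumor M-MDSCs gave 6 libraries in 3 groups, assigned by their titles. Per the labels and methods, the authors mapped reads to mm10 with Bowtie2 (version not given in the sources used here) and called peaks with MACS2 2.2.7.1 with a shift of 0 on pooled libraries, in 6 lists. Reads may therefore not be centered on the cut site, and how far this moves a summit is not known. The deposited columns were the fold enrichment (a linear ratio), −log10 p, −log10 q, a score and the summit. The score, 10 times the −log10 q, was deposited as well and not used. The lists ended at a q-value of 0.05, whereas the methods name a p of 1e-05, so which cutoff was set is unclear and some peaks are weaker than the named one.

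The members and lists of genes were chosen with earlier results of these data known. Treated tags and control level were solved from fold enrichment and −log10 p, with a pseudocount of 1, and all 11800 peaks were solved. To check the solving step, 300 peaks were simulated with the same formula at each of 3 known scaling factors, and 100% were recovered. This tests neither the formula nor the estimated scaling factors. A second solution existed for 144 MS-275 gained and 4 CXD101 gained peaks, and the closest fit was taken. Genes named were all members with a peak. The values given are those of the strongest peak per list, of CXD101, lost and direct peaks, and of promoter peaks. A few further summits of these intervals were added after their values were seen. Sequences were those of the peak of the highest −log10 p per list, the strongest Cdkn1a peak and promoter peaks of high −log10 p, with chromosome 18 left out, so Pmaip1 has none. They were read from GRCm38.p6 (mm10), and RefSeq promoters came from the same build. Alternatives covered windows, thresholds, intervals, overlap rules, background and motif window, and the p cutoff and a summit rule for overlap were added after seeing the data. Tools were Python 3.11.15, NumPy 2.4.6, SciPy 1.17.1, pandas 2.3.3 and Matplotlib 3.10.9.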

Additional observations from a re-analysis of the deposited data

Results flagged for a closer look

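By the direct MACS2 test of MS-275 over CXD101, peaks were called at 11 of the genes (24.4%), beside 6.63% of all protein-coding genes. The test used pooled libraries without replicates. The highest fold enrichment over CXD101 was 3.79 at Cdkn2a, 3.28 at Ccnd3, 3.06 at Cdkn1a and 2.79 at E2f2. It was 2.5 at Gadd45b, 2.37 at Cdkn1b, 2.29 at Ccnd1, 2.23 at Bcl2l1 and 2.21 at Btg2. The Bcl2l1 peak has a −log10 p of 4.99 and is lost at a p under 1e-05, which leaves 10 genes, Cdkn2b included. The fold enrichment was 2.02 at Cdkn2b, whose peak is the one at the upstream Cdkn2a start, and 1.88 at Cdk2. Cdkn2b thus adds no site of its own to either count. Both inhibitors were given at the same dose, and the exposure reached in the cells was not tested.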

How the results depend on the processing

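No paired analysis was possible because each list pools the libraries of a group before calling, with no value for a single library. Leaving out a library could not be run for that reason, so 1 library may carry any peak. A pseudocount of 0 gave no usable levels, since it solved only 1.41% to 3% of the peaks tried in the 5 larger lists. Of 144 values recomputed under alternatives, 94 stayed close to the reported value and 50 moved. Many of the 94 are counts of 0 that stayed at 0, which stricter settings could not change. The tolerance for counts was wide, and a change from 52 to 71 MS-275 gained peaks with 50 kb either side was taken as close. Narrower windows hold fewer bases and gave fewer peaks. The share of all protein-coding genes was computed only for the 20 kb window and around starts, at the thresholds of the lists. The counts in other windows and at stricter thresholds therefore have no background and cannot be read as a result. With the gene body alone, 10 genes with 23 peaks were found in the MS-275 gained list, 0 with 0 in the CXD101 gained list, 1 with 1 in the CXD101 lost list and 5 with 7 in the direct list. With the body and 5 kb upstream these were 12 with 31, 0 with 0, 1 with 1 and 7 with 11. Around starts they were 7 with 18, 0 with 0, 0 with 0 and 5 with 7. With 50 kb either side, 1 gene with 1 peak entered the MS-275 lost list, and 4 genes with 4 peaks were in the CXD101 lost list. The CXD101 lost list held 1 gene with 1 peak at a q-value under 0.01 or a fold enrichment of at least 2, and 0 with 0 at a q-value under 0.001. Over all annotated genes the background was 13.3% for MS-275 gained, 0.693% for CXD101 gained and 4.58% for direct peaks, with 1.9% of genes at an MS-275 lost peak and 2.26% at a CXD101 lost peak. Over protein-coding genes in the range of lengths of the 45 genes it was 17.9% for MS-275 gained and 0.808% for CXD101 gained. With an overlap of at least 50% of both peaks, 11 instead of 20 gained summits overlapped a direct peak, beside 10.7% of the whole list instead of 17.4%. With summits within 250 bases of each other, 16 did, beside 14% of the list. In windows of 50 bases either side, matches fell to 1 for AP-1, 5 for Sp1, 8 for NF-Y, 0 for E2F, 5 for CHR and 2 for the p53 half-site. At a MACS2 p under 1e-05, an alternative chosen after seeing the data, 20 genes with 46 peaks stayed in the MS-275 gained list, 10 with 14 in the direct list and 1 with 1 in the CXD101 lost list, where E2f4 dropped out.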
